A study of Homo sapiens with 28 samples.

Results

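The comparison described here set untreated p50 knockout clones of U937, a human monocytic line that grows in suspension, against untreated control clones of the same line. It used 5 of the 28 libraries of the study, chosen by their labels: p50-/- replicates 1 and 2 (p50) and control replicates 1, 2 and 3 (CTR), all without lipopolysaccharide (LPS) and all labelled 6 h. The p50 clones carry a CRISPR knockout of p50, and the CTR clones had received non-specific guide RNAs, so that both groups had passed through editing and cloning. Each replicate was 1 clone, the labels name no guide site or edited allele, and messenger RNA does not measure p50 protein. The labels also give a sample batch: p50 replicate 1 and CTR replicate 2 were in batch B, p50 replicate 2 was in batch A, and CTR replicates 1 and 3 were in batch C. Batch A held no control, and only batch B held a clone of each group. Another 9 untreated clones, with knockouts of p52, p65, cREL or RELB, entered the model to estimate the batch terms and the spread. The same clones with LPS at 500 ng/ml, at 6 h, gave libraries that the resting comparison did not use.

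NF-kB is a family of dimeric transcription factors. The p50 subunit is cut from the precursor p105, which is encoded by NFKB1, and it binds kB sites in DNA but has no activation domain of its own. Paired with p65 or cREL, p50 takes part in activation of inflammatory genes in monocytes, whereas p50 homodimers can occupy kB sites without activating them. The precursor p105 also holds other subunits in the cytoplasm, as the IkB proteins do. In resting cells most NF-kB is held this way, and LPS releases it through the receptor TLR4.

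The 5 libraries summed to between 15367969 and 17885555 estimated counts, with 3.39 to 3.97% of counts on mitochondrial genes in p50 and 2.85 to 4.32% in CTR. The 10 highest genes took 14.3 and 13.5% of counts in p50, against 11.5, 11.1 and 11.4% in CTR. The summed level of 12 monocytic identity markers was 5054 and 3170 TPM in p50 and 6184, 2598 and 3955 TPM in CTR, with MPO at or near 0 in every library. Defining markers of other cell types (CD3D, MS4A1, PF4, GP9, HBA1, HBA2, KRT19 and COL3A1) were at 0 in all 5 libraries. NKG7, a cytotoxic granule gene from the T and NK list, averaged 424 TPM in p50 and 380 TPM in CTR. Among 9943 genes with a mean of at least 5 CPM (counts scaled to a common library size), 13.8% differed over 2-fold between the p50 clones, whereas 4.91% did between p50 replicate 1 and CTR replicate 2, which share batch B. CTR replicates 1 and 3, both of batch C, differed over 2-fold at 6% of these genes, and CTR replicates 1 and 2, of different batches, at 13.1%. Also across batches, p50 replicate 1 differed from CTR replicates 1 and 3 at 9.46 and 7.63%, and CTR replicate 2 from CTR replicate 3 at 9.38%. Pairs of p50 replicate 2 with CTR replicates 1, 2 and 3 gave 19.4, 15.5 and 14%, so every pair with that clone was at 13.8% or more. The parts of batch and clone in these shares were not tested.

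No gene passed the test at rest. With genotype and batch in the model, edgeR called 0 of 17369 genes (0%) at an adjusted p under 0.05, and the smallest adjusted p was 1. An unadjusted p under 0.05 was reached by 681 genes (3.92%), 290 of them higher in p50 (1.67%) and 391 lower (2.25%). DESeq2 on the same libraries and model called 11 genes, EGR1 higher and 10 lower, of which 4 were at 0 in both p50 libraries and the others were NFKB1, CCL2, TM4SF1, FHL1, OTUD3 and SAMD8, and limma voom on all 28 libraries called 1, TM4SF1. Without the filter on low counts, edgeR called 75 of 35908 genes, 20 higher and 55 lower. Leaving out CTR replicate 3 gave 1 call, AC087190.3, and leaving out p65 replicate 1 gave 1, TM4SF1. The median standard error of a log2 fold was 0.33 for genes of at least 5 CPM and 0.50 over all genes tested. The genes below are therefore given as values that did not pass. They were those of lowest unadjusted p in each direction with a mean of at least 5 CPM, beside members of set lists. Both p50 libraries lay above all 3 CTR libraries for 1806 genes (10.4%) and below them for 1680 (9.67%) in CPM. On the deposited TPM these counts were 1337 above and 2157 below, so that the split depended on the scale.

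**Figure D1:**
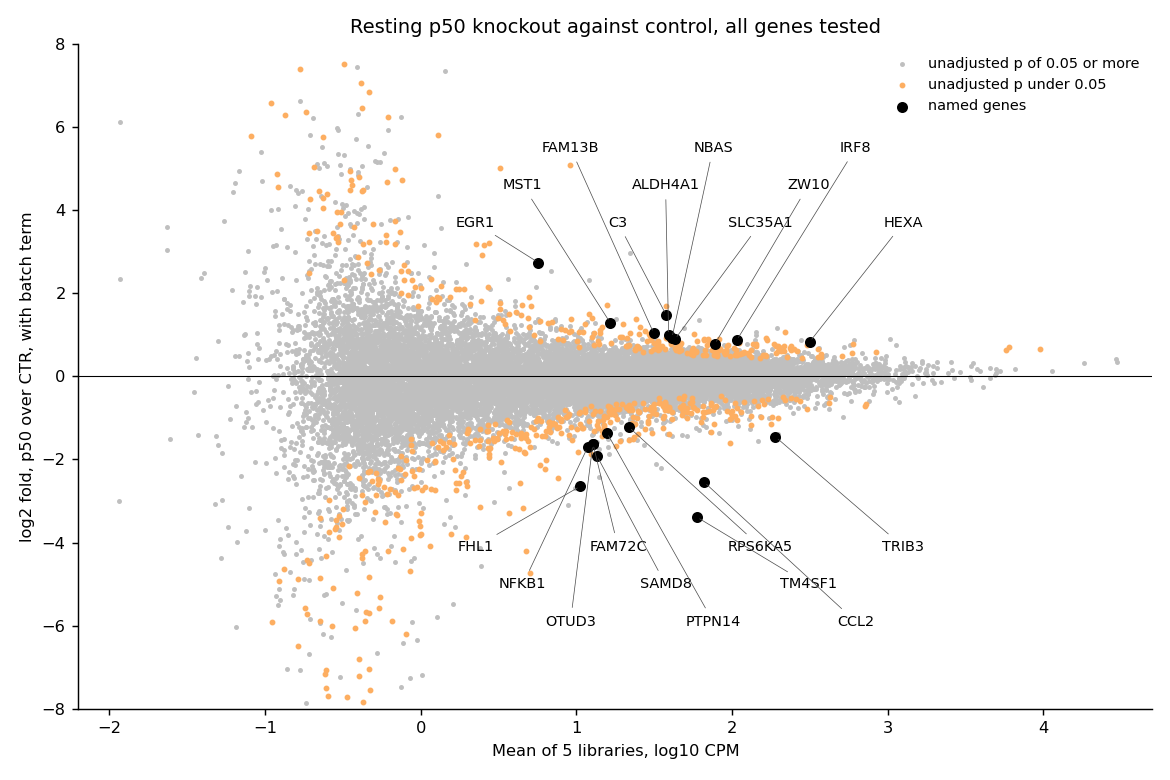
Log2 fold of p50 over CTR at rest, with batch in the model, against the mean of the 5 libraries in log10 CPM; each point is a gene tested, orange points have an unadjusted p under 0.05 and black points are the 20 named genes. No gene passed after adjustment, the spread widens below 5 CPM, and 31 genes lie beyond the vertical axis, which ends at 8 in either direction.

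NFKB1 (ENSG00000109320.11), the targeted gene, lies on the forward strand at chr4:102501329-102617302 of GRCh38. Its level was 6.25 and 5.20 CPM in the p50 clones, against 13.3, 22.1 and 11.99 CPM in the CTR clones. Both p50 clones were below every CTR clone, and also below all 9 clones of the other knockouts, whose lowest value was 9.43 CPM. The log2 fold was −1.71 ± 0.32 (SE; 95% interval −2.42 to −1.001; edgeR unadjusted p = 0.000223, adjusted p = 1), and DESeq2 gave an adjusted p of 0.00262. In the batch B pair the log2 fold was −1.81, and without the batch term it was −1.47. It was smaller, at −1.22, when effective length was taken into account, and −1.33 by limma voom and −1.39 by edgeR on all 28 libraries. NFKB1 transcripts were thus still present in the knockout clones, at a mean of 5.73 ± 0.739 CPM (SD, n = 2) against 15.8 ± 5.51 CPM in CTR (SD, n = 3). In these pooled cells, fewer cells with the transcript and less of it per cell cannot be told apart.

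The promoter of NFKB1 is itself a known target of NF-kB, and it is shown with that of TM4SF1 because those are the named genes with a match to the kB consensus before the start site. The sequences are the 250 bases before the RefSeq start site on GRCh38.p14, 5′ to 3′ on the gene's strand, from chr4:102501109-102501358 (forward) for NFKB1 and chr3:149377650-149377899 (reverse) for TM4SF1. Capitals mark the match.
NFKB1: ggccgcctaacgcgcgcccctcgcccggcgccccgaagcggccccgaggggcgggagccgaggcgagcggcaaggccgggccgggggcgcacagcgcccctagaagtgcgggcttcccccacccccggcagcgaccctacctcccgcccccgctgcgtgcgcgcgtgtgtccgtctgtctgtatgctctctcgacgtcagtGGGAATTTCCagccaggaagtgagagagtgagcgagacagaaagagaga
TM4SF1: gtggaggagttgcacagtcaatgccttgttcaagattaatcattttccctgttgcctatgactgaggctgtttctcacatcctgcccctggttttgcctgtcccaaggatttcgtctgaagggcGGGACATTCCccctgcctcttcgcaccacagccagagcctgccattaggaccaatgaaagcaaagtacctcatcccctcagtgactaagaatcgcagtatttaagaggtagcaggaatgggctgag
The match began 49 bases before the start site in NFKB1 and 126 bases before it in TM4SF1. A window of 300 bases, reaching past the start site, was searched on both strands by the consensus name kB alone. It held a match for 3 of the 17 named genes with an entry (17.6%), the third being MST1 with a match 12 bases after its start, against 713 of 10941 tested genes (6.52%). These genes had been picked by their values, and a match is a string of letters, not a site shown to be bound.

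Among the other subunits, RELB and NFKB2, both known to be induced through NF-kB, were low in the p50 clones. RELB, the partner of p52 in the noncanonical pathway, had 4.48 and 0.760 CPM in p50, against 5.90, 15.9 and 4.94 CPM in CTR. The groups did not overlap, and the log2 fold was −2.01 ± 0.69 (SE; edgeR unadjusted p = 0.014). NFKB2, which encodes p52 and its precursor, had 1.63 and 0.643 CPM in p50, against 4.17, 5.62 and 1.52 CPM in CTR. Here p50 replicate 1 exceeded CTR replicate 3, and the log2 fold was −1.73 ± 0.70 (SE; edgeR unadjusted p = 0.0294). REL, encoding cREL, had 29.1 and 23.8 CPM in p50, against 31.7, 33.6 and 34.4 CPM in CTR, with a log2 fold of −0.09 ± 0.31 (SE). RELA, encoding p65, had 49.4 and 45.0 CPM in p50, against 46.5, 49.4 and 48.2 CPM in CTR, and the groups overlapped. Its log2 fold was −0.02 without the batch term and −1.40 ± 0.71 (SE) with it, and the cause of that shift was not tested. Without the term the log2 folds were −1.78 for RELB and −1.73 for NFKB2. Clones with knockouts of p65, p52 and RELB are in the same fit.

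**Figure D2:**
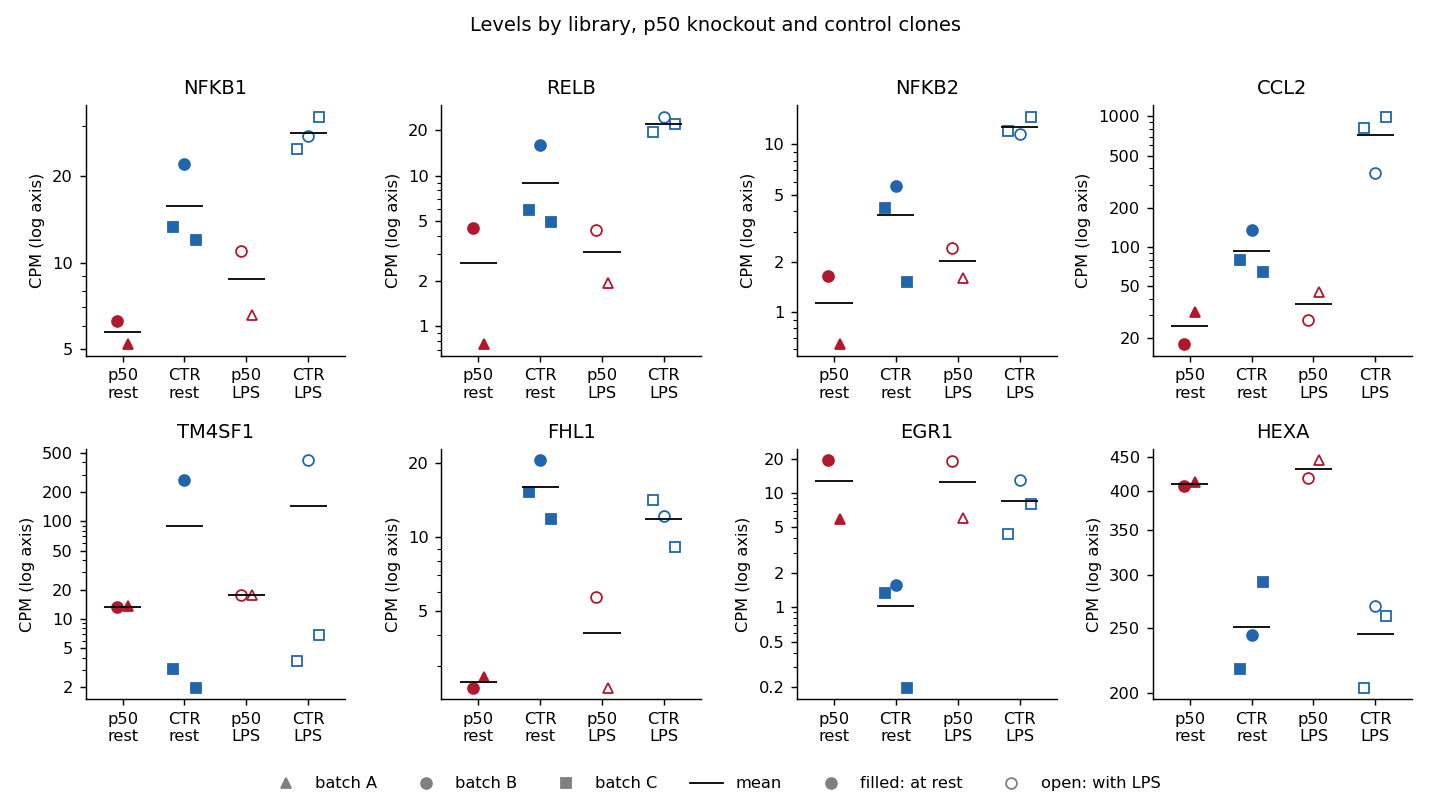
CPM by library (log axis) for 8 genes in p50 and CTR clones at rest (filled) and with LPS (open); symbols give the batch and bars the mean. The p50 clones lie below every CTR clone for NFKB1, RELB, CCL2 and FHL1 in both conditions and above every CTR clone for HEXA in both, TM4SF1 is high in CTR replicate 2 alone, and EGR1 separates the groups at rest but not with LPS.

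The inhibitors of NF-kB leaned lower. Of 14 IkB proteins and other brakes tested, 0 passed, 12 had a negative log2 fold, and the median was −0.36 against −0.04 over all genes tested. TNFAIP3, which encodes the ubiquitin-editing enzyme A20, had 5.77 and 8.54 CPM in p50, against 23.8, 20.2 and 16.9 CPM in CTR, with no overlap (log2 fold −1.16 ± 0.43, SE; edgeR unadjusted p = 0.0206). NFKBIB, encoding IkB-beta, had 12.4 and 8.42 CPM in p50, against 24.5, 20.3 and 22.5 CPM in CTR, again with no overlap (log2 fold −0.94 ± 0.35, SE; edgeR unadjusted p = 0.0208). NFKBIA, encoding IkB-alpha and the most abundant of these genes, had 65.9 and 25.8 CPM in p50, against 68.8, 72.7 and 51.9 CPM in CTR, and its groups overlapped. Upstream of these, 0 of 18 IKK, TRAF and related kinases passed, with a median log2 fold of 0.06, and 0 of 16 TLR4 pathway genes, with a median of −0.31. The median of TLR4 pathway genes was −0.12 without the batch term and 0.02 in the batch B pair. TLR4 itself had 149.7 and 112 CPM in p50, against 82.7, 107 and 108 CPM in CTR.

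CCL2, the chemokine that draws monocytes to inflamed tissue, was among the lowest of the target genes. Its level was 18.1 and 32.0 CPM in p50, against 79.9, 135 and 64.9 CPM in CTR. Both p50 clones were below every CTR clone, with a log2 fold of −2.54 ± 0.57 (SE; 95% interval −3.81 to −1.28; edgeR unadjusted p = 0.00107, adjusted p = 1; DESeq2 adjusted p = 0.00851). It was −1.90 without the batch term, −1.89 without CTR replicate 2 and −1.65 by limma voom. The other knockout clones were low as well: 8 of the 9 had between 6.21 and 17.5 CPM, and RELB replicate 1 had 62.4 CPM. Against their mean the log2 fold of p50 was 0.44 (edgeR unadjusted p = 0.298), so a low resting CCL2 was not shown to be particular to p50. CXCL8, a neutrophil chemokine, had 55.2 and 52.9 CPM in p50, against 48.1, 132 and 38.9 CPM in CTR. Its groups overlapped, and its log2 fold of −0.86 was −0.43 without the batch term. Of 15 chemokines tested, 0 passed, 10 had a negative log2 fold and the median was −0.56, but −0.04 without the batch term. Cytokines gave 0 of 17, with a median of 0.09; IL32, IL16 and IL18 were the most abundant.

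Genes with the lowest unadjusted p on the lower side included TM4SF1, FHL1, OTUD3, SAMD8, TRIB3, RPS6KA5, PTPN14 and FAM72C. TM4SF1, a tetraspanin-like membrane protein, had 13.1 and 13.7 CPM in p50, against 3.08, 264 and 1.98 CPM in CTR. The p50 clones were above CTR replicates 1 and 3 and below CTR replicate 2 alone. Its log2 fold was −3.38 ± 0.55 (SE; edgeR unadjusted p = 6.87e-05), and −1.46 without CTR replicate 2, although both p50 clones lay above the remaining CTR clones. The fitted sign thus runs against the values by library once CTR replicate 2 is left out. FHL1, a LIM-domain protein of muscle and other tissues, had 2.44 and 2.69 CPM in p50, against 15.3, 20.6 and 11.9 CPM in CTR. The clones of a group were close together and the groups far apart, with a log2 fold of −2.64 ± 0.51 (SE; edgeR unadjusted p = 0.000256; DESeq2 adjusted p = 0.00172). TRIB3, a pseudokinase of the integrated stress response, had 135 and 59.0 CPM in p50, against 172, 329 and 252 CPM in CTR, with no overlap and a log2 fold of −1.46 ± 0.33 (SE).

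The remaining genes of that group were less abundant. OTUD3, a deubiquitinase, had 7.06 and 5.55 CPM in p50, against 12.3, 24.2 and 14.6 CPM in CTR, and a log2 fold of −1.63 ± 0.34 (SE). SAMD8, an enzyme of ceramide phosphoethanolamine synthesis, had 10.3 and 3.98 CPM in p50, against 10.7, 30.4 and 12.2 CPM in CTR. RPS6KA5, the kinase MSK1, which phosphorylates p65 and histone H3, had 15.4 and 16.5 CPM in p50, against 18.3, 36.1 and 21.7 CPM in CTR. PTPN14, a tyrosine phosphatase, had 8.35 and 10.6 CPM in p50, against 16.6, 24.4 and 18.2 CPM in CTR. FAM72C had 5.84 and 5.73 CPM in p50, against 16.8, 15.8 and 19.6 CPM in CTR; it has near-identical copies in the genome among which reads may have been split, so its value is uncertain. For all 5 of these genes both p50 clones were below every CTR clone, and the log2 folds ran from −1.91 to −1.21; for PTPN14 it was −1.35, and −0.90 when effective length was taken into account.

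On the higher side, the lowest unadjusted p-values belonged to FAM13B, C3, MST1, ALDH4A1, HEXA, IRF8, SLC35A1, EGR1, NBAS and ZW10. HEXA, the alpha subunit of lysosomal beta-hexosaminidase, had 408 and 413 CPM in p50, against 217, 244 and 292 CPM in CTR. The groups were clearly apart, with a log2 fold of 0.83 ± 0.21 (SE; 95% interval 0.37 to 1.29; edgeR unadjusted p = 0.00205). The other knockouts averaged 344 to 413 CPM by genotype, and against them p50 had a log2 fold of 0.13. EGR1, an immediate early transcription factor of monocytic differentiation, had 19.4 and 5.90 CPM in p50, against 1.35, 1.56 and 0.198 CPM in CTR. Its p50 clones differed from each other, yet both lay above all CTR clones (log2 fold 2.74 ± 0.72, SE; edgeR unadjusted p = 0.00264; DESeq2 adjusted p = 0.0241), and the log2 fold was 1.70 without CTR replicate 2. The other knockouts averaged 3.14 to 11.1 CPM for EGR1 by genotype, and against them p50 had a log2 fold of 0.47. FAM13B had 46.5 and 40.9 CPM in p50, against 25.5, 22.0 and 22.2 CPM in CTR, with a log2 fold of 1.03 ± 0.24 (SE). MST1, which encodes macrophage-stimulating protein, had 30.2 and 19.4 CPM in p50, against 13.8, 10.9 and 7.84 CPM in CTR, with a log2 fold of 1.29 ± 0.32 (SE). ALDH4A1, a mitochondrial enzyme of proline breakdown, had 56.0 and 40.3 CPM in p50, against 36.5, 27.3 and 35.2 CPM in CTR. SLC35A1, the CMP-sialic acid transporter of the Golgi, had 49.7 and 56.0 CPM in p50, against 35.7, 26.9 and 45.8 CPM in CTR.

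Several of these values rested on the batch term. C3, the central complement component, had 46.6 and 34.4 CPM in p50, against 47.2, 17.0 and 43.0 CPM in CTR. Only CTR replicate 2, the batch B control, was low, and the log2 fold was 1.48 ± 0.36 (SE) with the batch term and 0.18 without it. IRF8, a transcription factor of the monocyte lineage, had 115 and 125 CPM in p50, against 118, 60.4 and 115 CPM in CTR, and log2 folds of 0.87 ± 0.22 (SE) with the term and 0.30 without it. NBAS, which acts in transport from the Golgi to the endoplasmic reticulum, and ZW10, its partner there and at kinetochores, had log2 folds of 0.92 and 0.77 with the term and 0.40 and 0.37 without it. For ALDH4A1, SLC35A1 and RPS6KA5 the log2 folds without the term were 0.54, 0.55 and −0.67, against 0.99, 0.89 and −1.21 with it. All 20 named genes had the same sign in the batch B pair, which the model draws on and where 50.1% of all genes were higher in p50, and all 20 kept it without the term. For 15 of the 20 the groups did not overlap, against 10.4% above and 9.67% below over all genes; the 20 were picked by p in these libraries, so nothing is read from that count.

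**Figure D3:**
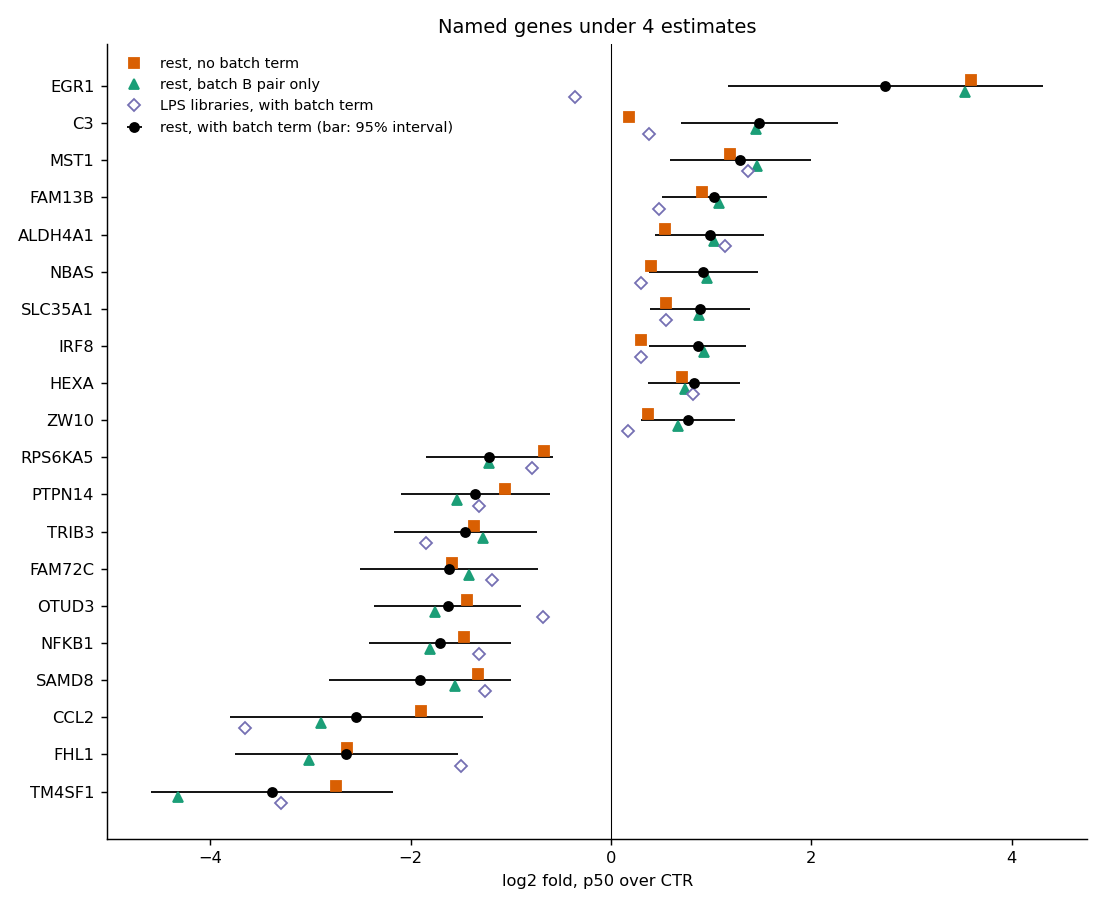
Log2 fold of p50 over CTR for the 20 named genes by 4 estimates: at rest with the batch term (black, with 95% interval), at rest without it (orange), in the batch B pair alone (green) and in the LPS libraries (open). The estimates lie close together for NFKB1, HEXA and MST1, whereas C3 and IRF8 approach 0 without the batch term and EGR1 is on the other side of 0 with LPS.

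None of the 27 gene lists held a gene that passed, and list medians ran from −1.71 for the 5 NF-kB subunits to 0.75 for promyelocyte granule proteins, the first being the value of NFKB1 itself, the targeted gene, against −0.04 over all genes tested, where 46.3% of log2 folds were above 0. Granule proteins of this list are made in early myeloid cells and stored for later use; MPO, a classic one, was at or near 0 here as given above. Of 14 tested, 13 had a positive log2 fold, 2 had both p50 clones above every CTR clone, where 10.4% of all genes did, and the median was 0.75, but 0.26 without the batch term and 1.23 in the batch B pair. ELANE, neutrophil elastase, had 1539 and 824 CPM in p50, against 1304, 499 and 1015 CPM in CTR, and overlapped. LYZ, lysozyme, had 1063 and 827 CPM in p50, against 2423, 431 and 921 CPM in CTR. SRGN, the granule proteoglycan serglycin, was apart in the groups, at 708 and 647 CPM in p50 against 567, 399 and 520 CPM in CTR. For most members CTR replicate 2 had the lowest value of the 5 libraries, and the summed level of the monocytic markers, which include ELANE and LYZ, was also lowest in that library. Its part in the result was not tested.

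Interferon-stimulated genes leaned lower. Of 46 tested, 36 had a negative log2 fold, 12 had both p50 clones below every CTR clone (9.67% of all genes tested did), 3 had an unadjusted p under 0.05 and were lower (2.25% of all genes), and the median was −0.61. That median was −1.10 without the batch term but −0.04 in the batch B pair. OAS3, a sensor of double-stranded RNA, had 22.6 and 25.1 CPM in p50, against 324, 63.1 and 48.0 CPM in CTR. TRIM22, an antiviral ubiquitin ligase, had 2.10 and 4.68 CPM in p50, against 40.9, 7.30 and 7.25 CPM in CTR. IFIT2, which restricts translation of viral RNA, had 1.43 and 0.702 CPM in p50, against 27.9, 3.77 and 4.08 CPM in CTR. In all 3 the groups did not overlap, and CTR replicate 1 was several times above the other CTR clones. The part of CTR replicate 1 in the list's median was not tested.

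MHC class II genes, which present peptides to helper T cells, had a median log2 fold of −0.86 over 16 tested, 13 of them negative, and 0 with an unadjusted p under 0.05. That median was −0.73 without the batch term but −0.17 in the batch B pair. The part of p50 replicate 2 and of the other batches in that median was not tested. HLA-DRA had 152 and 18.6 CPM in p50, against 50.4, 237 and 276 CPM in CTR, a wide spread within both groups. CIITA, the regulator of these genes, had 4.96 and 4.56 CPM in p50, against 7.18, 6.72 and 9.81 CPM in CTR, with no overlap (log2 fold −0.61 ± 0.44, SE). MHC class I genes had a median of −0.05 over 20 tested, and B2M, its shared light chain, had 1644 and 1801 CPM in p50, against 1688, 1808 and 1414 CPM in CTR.

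Among 37 genes of the cell cycle and DNA replication, 24 had a negative log2 fold and the median was −0.15, while 11 had both p50 clones below every CTR clone, against 9.67% of all genes tested. That median was −0.34 without the batch term and −0.22 in the batch B pair. Against the other knockouts it was 0.02, so a lower level was not shown to be particular to p50. At an edgeR unadjusted p under 0.05, 4 members were lower, CCNB2, AURKA, AURKB and PLK1, where 2.25% of all genes tested were. PLK1, a mitotic kinase, had 228 and 284 CPM in p50, against 617, 413 and 541 CPM in CTR (log2 fold −0.63 ± 0.23, SE; edgeR unadjusted p = 0.0176). CCNB2, a mitotic cyclin, had 148 and 204 CPM in p50, against 352, 255 and 322 CPM in CTR, and AURKB, a kinase of the spindle checkpoint, had 56.2 and 78.8 CPM in p50, against 160, 129 and 143 CPM in CTR. Of the subunits of the replicative helicase, MCM4 had 850.1 and 934 CPM in p50, against 858, 665 and 820.0 CPM in CTR, and its groups overlapped. MCM2 had 324 and 107 CPM in p50, against 496, 344 and 492 CPM in CTR, with both p50 clones lower.

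Receptors for cytokines and growth factors went both ways, with a median of −0.30 over 30 tested. That median was −0.09 without the batch term and −0.06 in the batch B pair. CSF2RB, the common beta chain of the GM-CSF receptor, had 41.1 and 39.6 CPM in p50, against 47.2, 80.1 and 48.0 CPM in CTR, with a log2 fold of −0.86 ± 0.24 (SE; edgeR unadjusted p = 0.0037). CSF3R, the G-CSF receptor, had 88.4 and 84.7 CPM in p50, against 59.3, 47.8 and 69.4 CPM in CTR, with a log2 fold of 0.88 ± 0.33 (SE; edgeR unadjusted p = 0.0198). Both genes separated the groups without overlap. IL1R2, the decoy receptor for interleukin 1, was at 0 counts in both p50 clones and between 0.395 and 0.705 CPM in CTR, too low for a useful fold. Of 28 immediate early genes, 20 had a negative log2 fold and the median was −0.22. That median was −0.13 without the batch term and 0.19 in the batch B pair. DUSP4, a phosphatase that ends MAP kinase signals, had 10.7 and 5.91 CPM in p50, against 23.3, 33.2 and 22.0 CPM in CTR, with a log2 fold of −1.56 ± 0.48 (SE; edgeR unadjusted p = 0.0074).

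Among stress genes, the upstream factor of TRIB3, DDIT3, also called CHOP, had 11.5 and 13.4 CPM in p50, against 35.7, 41.8 and 14.3 CPM in CTR, whereas the median over 19 tested was −0.04. At an edgeR unadjusted p under 0.05, 2 members were lower, TRIB3 and DDIT3, and 1 was higher, EIF2AK3. Over all genes tested, 2.25% were lower at that level and 1.67% higher. Lysosomal genes had a median of 0.27 over 24 tested, 17 of them positive, and −0.01 without the batch term. PSAP, the precursor of saposins, which activate lysosomal lipid hydrolases, had 909 and 842 CPM in p50, against 503, 720 and 601 CPM in CTR, with a log2 fold of 0.44 ± 0.22 (SE). The median was −0.59 for costimulation genes (16 tested), −0.26 for cholesterol and fatty acid synthesis (25), −0.16 for survival and apoptosis (24), −0.16 for monocyte and macrophage maturation (22), −0.09 for adhesion (19) and −0.03 for myeloid transcription factors (27). It was −0.0017 for phagocyte oxidase and antioxidant genes (20), 0.01 for eicosanoid and urokinase genes (13), 0.03 for glycolysis and hypoxia (25), 0.07 for S100, annexin and complement genes (19), 0.12 for chemoattractant receptors (13) and 0.20 for mitochondrial messenger RNA (13), of which 12 were positive, with a median of −0.12 without the batch term. For cholesterol and fatty acid synthesis the median was −0.07 both without the batch term and in the batch B pair.

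**Figure D4:**
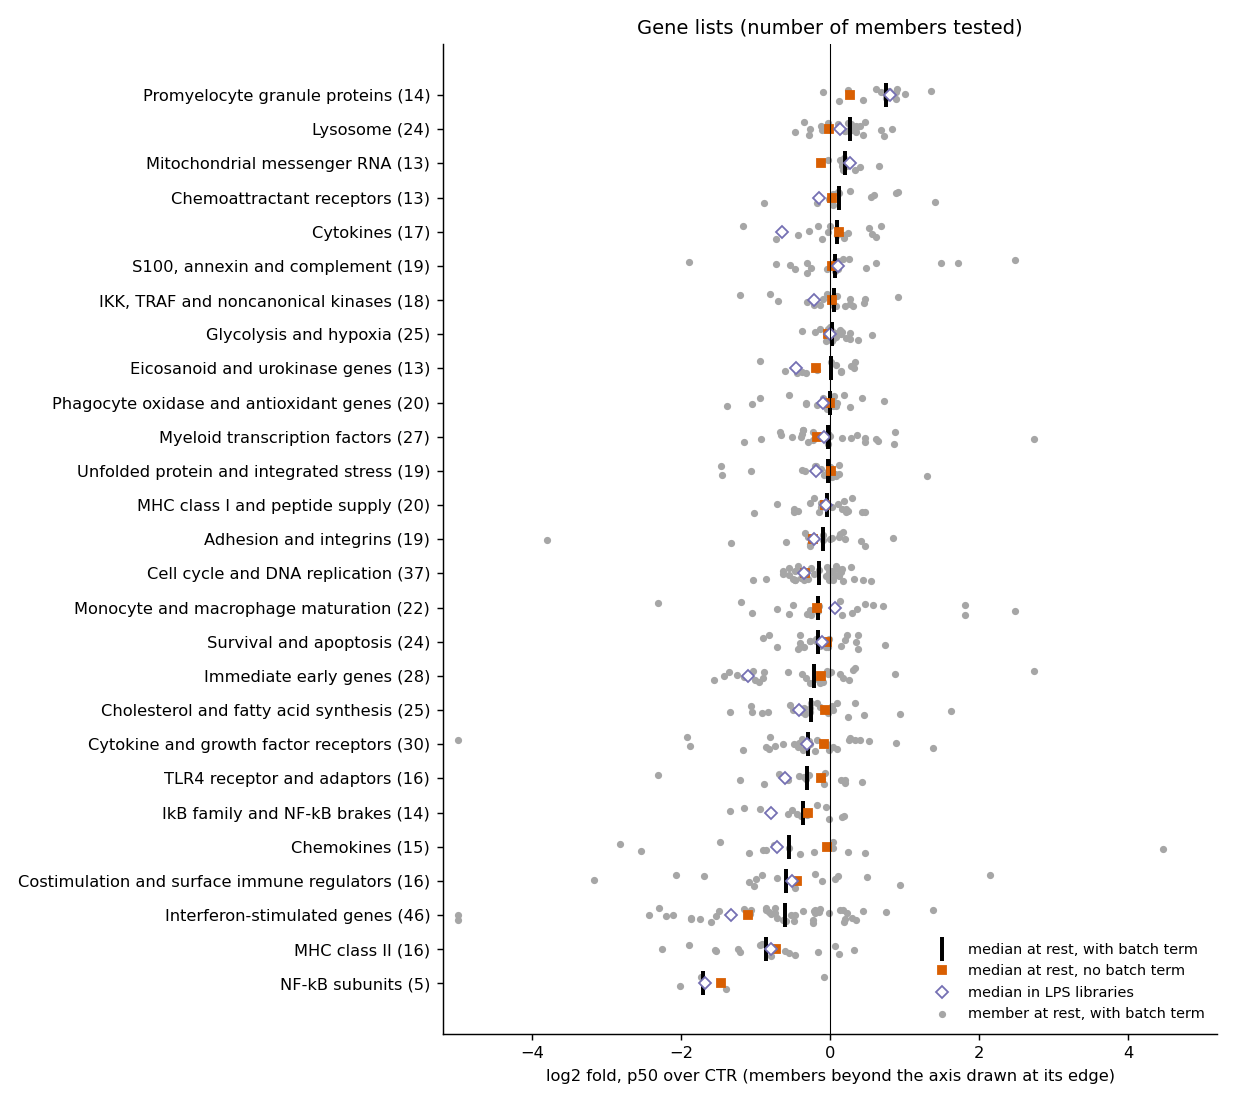
Log2 fold of p50 over CTR at rest for each tested member of the 27 lists (grey), with the list median at rest with the batch term (black bar), without it (orange) and in the LPS libraries (open). Promyelocyte granule proteins have the highest median, 0.75, and NF-kB subunits the lowest, −1.71; the median of interferon-stimulated genes moves to −1.10 without the batch term and the one of immediate early genes to −1.10 with LPS.

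Against the mean of the other knockouts, in the same fit, which the control libraries also enter, edgeR called 1 of 17369 genes (0.00576%), and 782 had an unadjusted p under 0.05 (4.5%), 269 higher (1.55%) and 513 lower (2.95%). The called gene was RGPD6, a member of a family of near-identical copies derived from RANBP2, and it is uncertain for that reason. It had 8.01 and 8.48 CPM in p50, between 0 and 7.20 CPM in the other knockouts and 3.59, 11.1 and 9.49 CPM in CTR (log2 fold against the other knockouts 4.61, adjusted p = 0.0377). Its copy RGPD5 ran the other way, at 4.41 and 4.33 CPM in p50 against 7.56 to 16.0 CPM in the p52, cREL and RELB clones, whereas the p65 clones had 3.68, 1.55 and 2.54 CPM of RGPD5 and 4.61, 7.20 and 2.77 CPM of RGPD6. With LPS RGPD6 was at 9.60 CPM in p50 replicate 1 and 0 in p50 replicate 2, against 0.389, 0.310 and 0 CPM in CTR. The call was lost when effective length was taken into account (edgeR adjusted p = 0.875), and without p50 replicate 1 (0.0548), p50 replicate 2 (0.865), CTR replicate 2 (0.0835), CTR replicate 3 (0.145) or p65 replicate 1 (0.155). Next by unadjusted p were SNHG1, C4orf3, RPL22 and TRGC1 on the higher side and SMPD2, HSPA6, PLAU and BLNK beside NFKB1 on the lower. SNHG1, a host gene of small nucleolar RNAs, had 119 and 184 CPM in p50, means of 71.1 to 110 CPM in the other knockouts and 58.4, 99.9 and 65.4 CPM in CTR. PLAU, urokinase, had 59.2 and 52.7 CPM in p50, means of 88.5 to 128 CPM in the other knockouts and 106, 56.8 and 136 CPM in CTR. NFKB1 had a log2 fold of −1.37 ± 0.26 (SE; edgeR unadjusted p = 0.000238, adjusted p = 0.895; DESeq2 adjusted p = 0.00101) in this contrast. FHL1 also stayed low, at −1.53, while MST1, HEXA, ALDH4A1 and PTPN14 were between −0.16 and 0.13. The other knockout clones had 3.88 to 11.01 CPM of FHL1 at rest, also below the lowest CTR clone, at 11.92 CPM. A resting FHL1 below control was thus not particular to p50, although the p50 clones were lower still.

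The LPS libraries of the same clones gave a second reading of the named genes, although differences between clones carry over. There edgeR called 1 of 17394 genes (0.00575%), and 1235 had an unadjusted p under 0.05 (7.1%), 460 higher (2.64%) and 775 lower (4.46%). The called gene was CCL2, which was lower in p50, at 27.8 and 45.7 CPM against 812, 366 and 994 CPM in CTR, with a log2 fold of −3.66 ± 0.29 (SE; adjusted p = 0.00063). DESeq2 called 89 genes in this comparison, 21 higher and 68 lower, while edgeR called 14 without p50 replicate 1 and 5 without p65 replicate 1. Of the 20 genes named at rest, 19 had the same sign with LPS, where 47.5% of all log2 folds were above 0, and 12 of these had an unadjusted p under 0.05. NFKB1 had 11.002 and 6.56 CPM in p50 with LPS, against 24.8, 27.6 and 32.3 CPM in CTR. RELB had 4.33 and 1.93 CPM in p50 with LPS, against 19.6, 24.7 and 22.2 CPM in CTR. HEXA had 418 and 445 CPM in p50 with LPS, against 203, 269.8 and 261 CPM in CTR, with a log2 fold of 0.82. MST1 and ALDH4A1 were likewise apart with LPS, with log2 folds of 1.36 and 1.14. EGR1 was the exception, at 19.1 and 6.04 CPM in p50 with LPS against 4.34, 13.0 and 7.98 CPM in CTR, and a log2 fold of −0.35; whether its difference changes with LPS was not tested. List medians in the LPS libraries were 0.81 for granule proteins, −1.33 for interferon-stimulated genes, −0.80 for MHC class II, −0.79 for the NF-kB brakes and −1.10 for immediate early genes.

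The p50 clones were not alike along the chromosomes. Genes with a mean of at least 10 CPM were ordered by position in 419 bins of 20 neighbours, and each library was set against the median of all 14 clones. In p50 replicate 1, 0 bins had a median 0.6 or more from that level on the log2 scale, against 11 in p50 replicate 2, 14 in CTR replicate 1 and 1 each in CTR replicates 2 and 3. In p50 replicate 2 the low bins formed runs on 3 chromosomes: 80 genes on chromosome 6 between 35.2 and 49.5 Mb with a median of −0.97, 57 genes on X between 136.0 and 155.9 Mb with −0.78, and 80 genes on chromosome 19 up to 4.87 Mb with −0.74. The LPS library of that clone gave −0.90, −0.63 and −0.43 for the same genes. In CTR replicate 1 the low runs lay on chromosome 6, with 60 genes at −0.96 and 100 at −0.76, and on chromosome 18, with 40 at −0.95, and the LPS library gave −1.02, −0.69 and −0.99. That clone also had a high run of 60 genes on chromosome 12, at 0.635 and, with LPS, 0.506. Other knockout clones had runs too: RELB replicate 2, p65 replicates 2 and 3 and cREL replicate 2 had 14, 7, 5 and 3 bins past 0.6. The run of p65 replicate 2, on X between 71.1 and 155.9 Mb at −0.81, spans the X run of p50 replicate 2. DNA copy number was not measured. In p50 replicate 2 at rest, genes in the upper quartile of GC content also had a median of −0.41 and those in the lower quartile 0.16; with LPS these were −0.13 and 0.03.

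**Figure D5:**
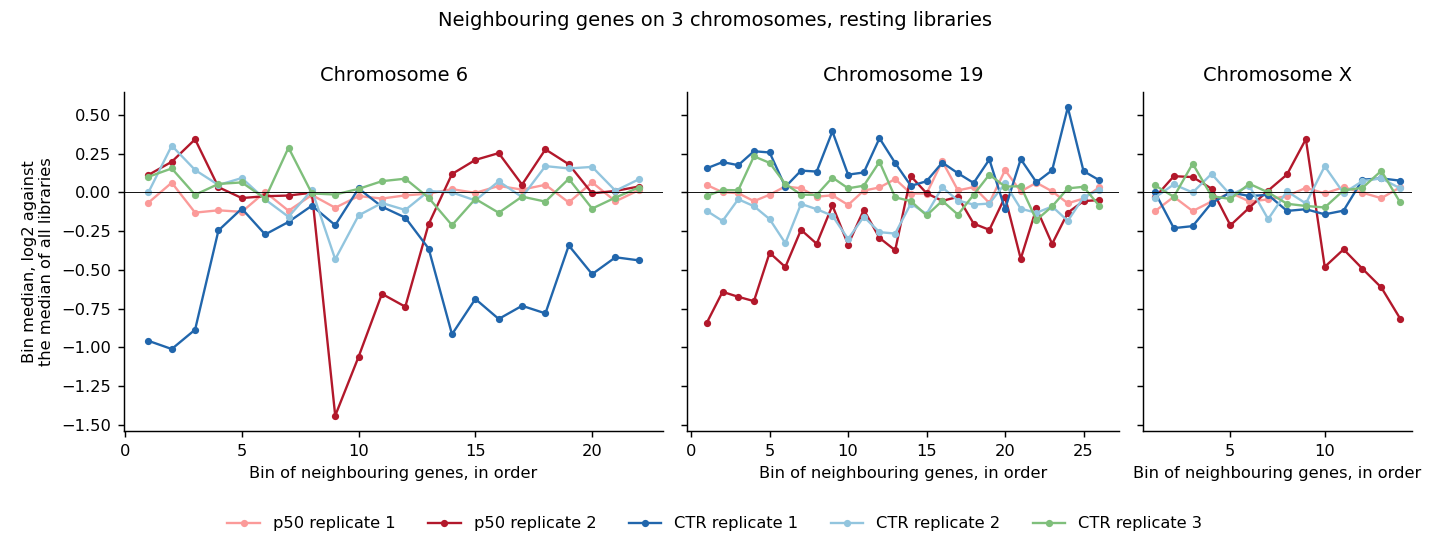
Median log2 deviation from the median of all 14 untreated clones, for bins of 20 neighbouring genes in order along chromosomes 6, 19 and X, in the 5 libraries compared. p50 replicate 2 is low in a stretch of chromosome 6, at the start of chromosome 19 and at the end of X, CTR replicate 1 is low on other parts of chromosome 6, and p50 replicate 1 stays near 0.

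The clones also differed in what each would call alone. Without p50 replicate 1, edgeR called 12 genes, all lower in p50 replicate 2, of which 7 are on X, 3 on chromosome 6, 1 on chromosome 19 and 1, JUN, on chromosome 1. That fit assumes that the lone clone varies like the other groups. Of the 12 genes, 6 lie inside the low runs of p50 replicate 2. Those runs hold 80, 80 and 57 of the 8611 genes ordered by position, and nothing is read from the count inside them. In all of these genes p50 replicate 2 was below every other untreated clone, which follows largely from how they were picked. With LPS, in another library of the same clone, p50 replicate 2 was again below p50 replicate 1 and every CTR clone. HMGB3, a chromatin protein gene on X, had 81.4 CPM in p50 replicate 1 and 3.21 CPM in p50 replicate 2, against 119, 95.3 and 114 CPM in CTR, and SMIM10 and RTL8A, also on X, were at 0 in p50 replicate 2 in both conditions. PPARD, a nuclear receptor gene on chromosome 6, had 119 CPM in p50 replicate 1 and 14.8 CPM in p50 replicate 2, against 95.1, 58.7 and 110 CPM in CTR. Of the named genes, FHL1 lies in a bin of X at −0.61 in p50 replicate 2 but −0.04 in p50 replicate 1, where FHL1 was equally low. SLC35A1 lies in a bin at −0.69 in CTR replicate 1, HEXA in a bin at −0.49 in that clone and NBAS in a bin at −0.51 in CTR replicate 2, in the direction of their higher values in p50. PTPN14 and TM4SF1 lie in bins at 0.46 and 0.40 in CTR replicate 2, in the direction of their lower values in p50. The part of these bins in those results was not tested. With p50 replicate 2 and CTR replicate 1 both left out, edgeR again called 0 genes, with 617 at an unadjusted p under 0.05.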

How the data were processed

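Gene expression was measured by RNA sequencing of U937 clones. Per the labels' protocols, 2 ng of RNA was reverse transcribed from oligo(dT), amplified by 13 cycles of PCR and read as pairs of 151 bases. The authors deposited estimated counts, TPM and effective lengths per gene symbol (56809 symbols); Salmon 0.11.3, FastQC 0.11.7 and GRCh38 come from the submitters' processing notes. The deposited TPM values were used for markers and as another scale.

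Estimated counts were rounded and tested with edgeR 4.0.16 (R 4.3.3; filterByExpr with minimum count 10 and total 15, TMM scaling, robust quasi-likelihood) over 14 untreated libraries, with 6 genotypes and 3 batches, leaving 6 residual degrees of freedom; Benjamini-Hochberg adjusted p under 0.05 was called. Libraries with LPS were fitted separately in the same way. All p-values are two-sided, and those of fits within 1 treatment measure the spread between clones. The edgeR fit on all 28 libraries holds each clone with and without LPS and has no clone term. Its p-values therefore treat libraries of the same clone as independent. limma voom on all 28 libraries took the clone as a random effect, with a correlation of 0.355. CPM are TMM-scaled, and log2 folds are p50 minus the group set against it. In the batch B pair, log2 folds used a prior count of 2. DESeq2 1.42.0 and limma 3.58.1 served as alternatives, beside other scalings, filters, models and left-out libraries. The code was tested on simulated data with large planted changes in genes of high counts and with less spread than in these libraries. That test does not show whether smaller changes could be found here.

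NFKB1 was named first, then 10 genes per direction (mean of at least 5 CPM, lowest unadjusted p, as none passed), up to 5 per direction against the other knockouts, and in each list the most abundant members. Members and lists were chosen with earlier results of these data known, and list members named for an unadjusted p, genes called under an alternative and the runs of neighbouring genes were chosen after their values were seen. Promoters are from RefSeq, GRCh38.p14; 17 of the 20 named genes had an entry. PCR duplicates were not separable, so depth gives counting error only.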

Additional observations from a re-analysis of the deposited data

How the results depend on the processing

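For p50 against CTR at rest, edgeR called 0 genes without the batch term, with only the 5 libraries, with RLE size factors, with effective length, at a minimum count of 30, with all 28 libraries and without p50 replicate 2 and CTR replicate 1 together, an alternative chosen after the data were seen. DESeq2 called 11 genes, no filter 75 and limma voom 1, and leaving out libraries in turn gave 0 to 12. For p50 against the other knockouts (1 call), DESeq2 gave 7, no filter 147, effective length 0, all 28 libraries 0, limma voom 0, and left-out libraries 0 to 31. For p50 against CTR with LPS (1 call), DESeq2 gave 89, no batch term 3, the 5 libraries alone 0 (CCL2 adjusted p = 0.151), no filter 281, all 28 libraries 24, limma voom 27, and left-out libraries 1 to 14. The cause of these shifts was not tested, although some alternatives test more genes or hold fewer samples. The edgeR fit on all 28 libraries has no clone term, so its calls do not rest on the spread between clones alone.

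Replicate numbers are shared between groups, but the deviations of p50 and CTR replicates correlated at 0.0845 for number 1 and −0.105 for number 2, and nothing says that the numbers pair samples. With 2 p50 clones the deviations mirror each other, so p50 replicate 1 and CTR replicate 2, both of batch B, gave 0.105. The largest value, 0.24, was between p50 replicate 2 and CTR replicate 3. These values cannot tell pairing by number from batch. With the replicate block, the 3 comparisons gave 0, 0 and 1 calls, so the RGPD6 call was lost (adjusted p = 0.127). Of the single-gene results under all alternatives, 474 kept their direction and side of the threshold, 22 came to pass it, 10 no longer did and 0 reversed. No gene named for p50 against CTR at rest passed in the main fit, so keeping its side says nothing about its size. With only the 5 libraries, the log2 fold of C3 went from 1.48 to 0.18 and that of IRF8 from 0.87 to 0.29, and both counted as kept. The groups did not overlap at 3486 genes, and at 5006 with no filter (2963 higher, 2043 lower). The median standard error was 0.50 over all genes and 0.33 at or above 5 CPM; it holds both counting error and spread between clones, which were not separated.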
